A study of Mus musculus with 24 samples.

Results

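Metallothioneins, the zinc transporters around them and the zinc-sensing factor Mtf1 were examined in sorted mouse astrocytes. The 9 genes were chosen by name, as Mt1, Mt2, Mt3, Slc39a8, Slc39a14, Slc39a12, Slc30a1, Slc30a10 and Mtf1. All 9 were present among the 24421 gene names listed for every library, and all 9 passed the filter on low values that left 12759 genes for testing. The cells were taken by fluorescence sorting from 4 regions of C57BL6 mice aged 20 weeks, the olfactory bulb, the hippocampus, the cortex and the brainstem, and 3 RNA-seq libraries were made for each region and genotype, 24 in all. Control mice were of the genotype NFIAfl/fl; Aldh1l1-GFP. Mice labelled knockout carried the same alleles together with Aldh1l1-CreER. Thus all mice had floxed alleles of Nfia, which encodes one of the nuclear factor I transcription factors, and a green reporter driven by the Aldh1l1 promoter. The libraries labelled knockout alone also had Cre recombinase fused to an oestrogen receptor domain, driven by the same promoter, which is active in astrocytes and some other cells. No drug that activates this Cre is named in the labels. No label says whether the 3 libraries of a group came from separate mice, so p-values measure the spread between libraries, which may be technical.

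The level of a gene is given below as its reads in a library divided by that library's size factor, called rescaled reads, and changes are log2 fold changes after adding 5 to each value. The comparisons asked how the 9 genes differed between libraries labelled knockout and controls in each region, and between control regions. Libraries held 1090777 to 24297573 reads, the fewest in brainstem knockout 3 and the most in hippocampal knockout 1. All 18 astrocyte markers that were checked had reads in every group. Nfia was at 3294 to 7428 in the 12 controls and at 7457 to 13264 in the 12 libraries labelled knockout, and was higher in the latter (limma, average over regions log2 fold change 0.90, SE 0.09, adjusted p = 1.94e-07). Its reads thus go against a loss of the transcript. Counts over the whole gene cannot show a deleted exon, and every direction below rests on the labels. The 45S ribosomal RNA precursor gene Rn45s took 0.966% to 3.33% of the reads in olfactory bulb and hippocampus, apart from olfactory bulb knockout 3 at 20.8%, and 13.5% to 25.6% in cortex and brainstem.

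Metallothioneins are small proteins rich in cysteine that bind zinc and copper and buffer the free zinc of the cytosol. In the brain, Mt1 and Mt2 are made mainly by astrocytes and are induced by metals, glucocorticoids and oxidative stress, while Mt3 is the brain-enriched member of the family. ZIP proteins of the Slc39a family move zinc and other divalent metals into the cytosol, and ZnT proteins of the Slc30a family move them out of it. MTF1 is a transcription factor that binds DNA when zinc rises and acts through short metal response elements in the promoters of its targets, of which Mt1, Mt2 and Slc30a1 are the classic ones.

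In mm10, the 4 metallothionein genes lie on the plus strand of chromosome 8 within 43.1 kb, in the order Mt4 (94137197 to 94139031), Mt3 (94152607 to 94154146), Mt2 (94172664 to 94173568) and Mt1 (94179082 to 94180327). Slc30a10 (185454848 to 185468762) and Slc30a1 (191906767 to 191913247) lie on the plus strand of chromosome 1. Slc39a12 is on chromosome 2 (14388316 to 14494977), Slc39a8 on chromosome 3 (135825279 to 135888572) and Mtf1 on chromosome 4 (124802104 to 124849800), all on the plus strand. Slc39a14 is on the minus strand of chromosome 14 (70303469 to 70351425). Several of these genes have a neighbour on the other strand, and whether the counting used strand is not given in the sources used here. Of the 50-base words in the Mt2 transcript, 45.5% also lie in Gm45774, an antisense gene that is not analysed here, so Mt2 values could include its reads. For Slc30a1, Slc30a10 and Mtf1 the shared part was 8.08%, 8.36% and 8.86%, with genes on the opposite strand whose mean levels were 1.75, 38.3 and 3.73 rescaled reads. Mt1 and Mt3 shared no 50-base word with another transcript, so reads of this length can be told apart among the metallothioneins.

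Promoters of 8 of the 9 genes, all but Slc39a14, were matched to RefSeq on GRCm38.p6. The 250 bases before the start are shown for the 5 genes that rose on average over the regions, and for Slc30a1, a classic MTF1 target that did not pass that test. They lie at chr8:94178839-94179088 (Mt1), chr8:94172368-94172617 (Mt2), chr8:94152357-94152606 (Mt3), chr3:135825029-135825278 (the first of 2 starts of Slc39a8), chr1:185454598-185454847 (Slc30a10) and chr1:191906531-191906780 (Slc30a1), all on the plus strand. Capitals mark the core of the metal response element, searched as TGCACNC and TGCGCNC on both strands.
Mt1: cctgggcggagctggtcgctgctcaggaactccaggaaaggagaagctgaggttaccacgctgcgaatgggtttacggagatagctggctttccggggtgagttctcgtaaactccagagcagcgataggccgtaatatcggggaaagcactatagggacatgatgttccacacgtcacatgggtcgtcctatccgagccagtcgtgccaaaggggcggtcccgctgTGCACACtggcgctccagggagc
Mt2: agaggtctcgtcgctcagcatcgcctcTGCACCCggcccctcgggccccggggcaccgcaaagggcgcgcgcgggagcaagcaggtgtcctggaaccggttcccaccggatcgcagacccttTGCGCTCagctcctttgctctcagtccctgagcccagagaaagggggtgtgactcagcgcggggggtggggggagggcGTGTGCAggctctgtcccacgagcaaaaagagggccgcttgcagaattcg
Mt3: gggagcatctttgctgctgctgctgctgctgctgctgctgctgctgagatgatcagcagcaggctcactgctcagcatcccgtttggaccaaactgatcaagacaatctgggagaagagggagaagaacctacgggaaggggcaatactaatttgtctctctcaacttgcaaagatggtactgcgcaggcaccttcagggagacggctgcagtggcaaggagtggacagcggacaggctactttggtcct
Slc39a8: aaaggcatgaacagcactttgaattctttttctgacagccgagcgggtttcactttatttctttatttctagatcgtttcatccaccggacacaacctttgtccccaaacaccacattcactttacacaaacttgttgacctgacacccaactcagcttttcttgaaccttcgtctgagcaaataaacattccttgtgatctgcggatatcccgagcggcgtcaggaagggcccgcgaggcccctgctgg
Slc30a10: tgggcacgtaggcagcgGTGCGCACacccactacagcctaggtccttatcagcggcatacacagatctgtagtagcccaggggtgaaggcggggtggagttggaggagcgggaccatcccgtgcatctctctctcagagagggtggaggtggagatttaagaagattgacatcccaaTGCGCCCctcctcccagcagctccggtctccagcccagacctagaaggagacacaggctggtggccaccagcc
Slc30a1: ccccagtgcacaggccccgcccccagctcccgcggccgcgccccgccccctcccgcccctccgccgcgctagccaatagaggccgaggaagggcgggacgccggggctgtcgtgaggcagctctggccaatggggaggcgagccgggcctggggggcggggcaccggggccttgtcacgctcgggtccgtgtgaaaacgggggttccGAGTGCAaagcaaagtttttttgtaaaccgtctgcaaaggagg

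The promoter of Mt2 held 3 such cores, at 223, 128 and 50 bases before the start counted to the far end of each core, and that of Mt1 held 1, at 23 bases. Slc30a10 also held 3, of which 2 overlapped on opposite strands at 233 and 232 bases and the other was at 73 bases. Slc30a1 held 1, at 43 bases. Mt3, the first start of Slc39a8, Slc39a12 and Mtf1 held 0, and the second start of Slc39a8 held 1. The starts used for these windows can differ from the gene starts given above. For Mt2 the window ended at 94172617, before the gene start at 94172664. For Mt1 it ended at 94179088, past the gene start at 94179082. A gene start is the outermost of all its annotated transcripts, and the start of the principal Mt1 transcript was not compared with the window. Of 32851 promoters of the same length, 21.4% held at least 1 core, 5.17% held 2 or more and 1.26% held 3 or more. In windows of this length a single core is thus a common feature and 3 are not. The overlapping cores of Slc30a10 counted as 2, and such cores were counted in the same way in all promoters. The 50 bases after the start were then added. Mt1 now held 3 cores, Mt2 4, Mt3 1 and Slc30a1 2, and the other promoters kept their number. Of all such windows, 25.7% held at least 1 core, 7.11% held 2 or more, 1.97% held 3 or more and 0.517% held 4 or more. The count for Mt1 thus depended on where the window ended, and cores before the start of its principal transcript may have been missed. The palindrome of nuclear factor I, which is TTGGC and GCCAA separated by 5 bases, was not found in these promoters and was in 0.0365% of all. Its single arm TTGGC, searched on both strands, was in the promoters of Mt1 (1), Slc30a1 (2) and Mtf1 (1) and in 41.5% of all promoters. These are matches of letters and not measured sites.

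Between genes, levels can be compared only per length. Per kilobase of the principal transcript, Mt1 and Mt2 were the highest of the 9 genes in controls of each region. Mt1 was at 5389 ± 615 rescaled reads per kilobase (SD, n = 3) in olfactory bulb, at 5044 ± 1491 in hippocampus, at 4594 ± 457 in cortex and at 3068 ± 420.5 in brainstem. The zinc importer gene Slc39a12 came next, at 865 ± 32.2, 897 ± 257, 1149 ± 154 and 1106 ± 350.4 per kilobase. It was followed by Mt3, from 673 ± 308 in olfactory bulb to 165 ± 68.8 in brainstem. The exporter genes Slc30a1 and Slc30a10 and the factor Mtf1 had means of 27.9 to 103 per kilobase. The importers Slc39a14 and Slc39a8 were the lowest, with means of 13.5 to 21.9 and 8.39 to 19.8. The order of Mt1 and Mt2 depends on the length used. Over all annotated exons, the hippocampal control mean was 2222 per kilobase for Mt1 and 3902 for Mt2, where the principal transcripts gave 5044 and 4490. Mt4, the fourth gene of the cluster, had 0 reads in all 24 libraries.

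**Figure D1:**
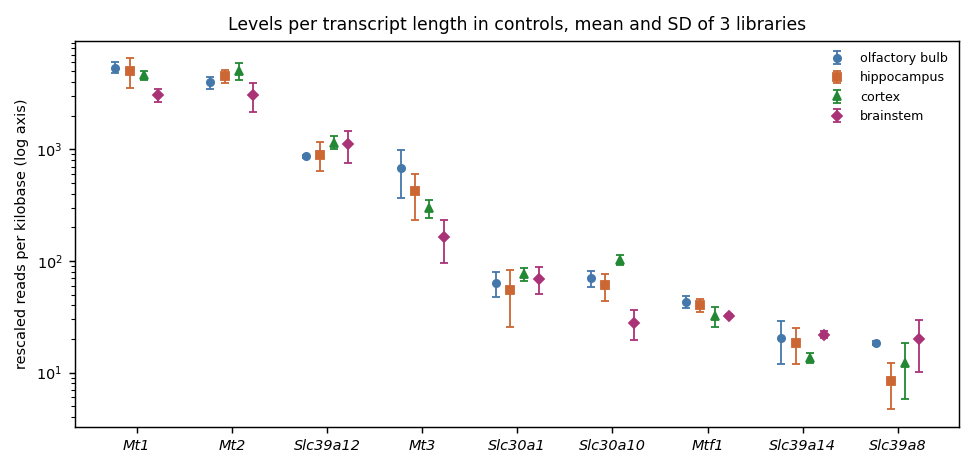
Levels of the 9 genes in control astrocytes per kilobase of principal transcript, on a log axis, as mean and SD of 3 libraries per region. Mt1 and Mt2 stand highest in every region, Slc39a12 comes next, and Slc39a8 and Slc39a14 stand lowest.

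Averaged over the 4 regions, 5 of the 9 genes rose in libraries labelled knockout and none fell. They were the 3 expressed metallothioneins, the importer gene Slc39a8 and the manganese exporter gene Slc30a10. Of all genes tested, 2.73% rose and 5.75% changed in either direction in this comparison. The median log2 fold change of the 9 was 0.44, beside -0.01 over all genes tested. By region, the test called 2 of the 9 in hippocampus, Mt1 and Mt2, where 2.36% of all genes were called and 0.690% were called higher. It called Slc39a8 in brainstem, where 0.666% were called and 0.462% were called higher. It called 0 of the 9 in olfactory bulb, where 0.0862% of all genes were called, and 0 in cortex, where 0.376% were called. At an unadjusted p under 0.05, 1 of the 9 (Mt2) was counted in olfactory bulb and 0 in cortex, where 5.09% and 6.11% of all genes were counted, and edgeR and DESeq2 also called 0 in these regions. The median log2 fold change over the 9 was -0.00 in olfactory bulb and 0.80 in hippocampus, and it was 0.20 in cortex and 0.37 in brainstem.

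**Figure D2:**
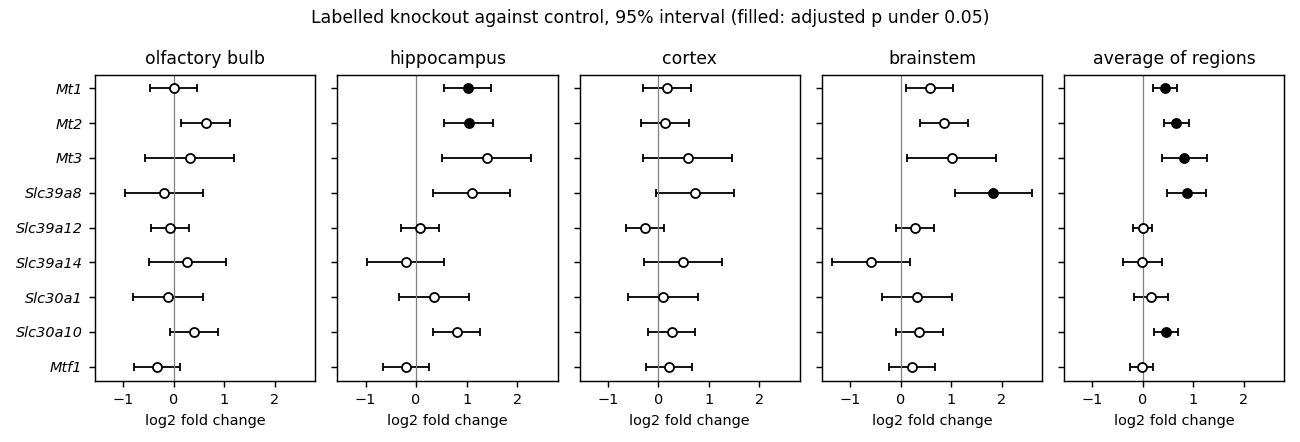
Log2 fold changes of libraries labelled knockout against controls for the 9 genes in each region and on average, with 95% intervals, where filled points have an adjusted p under 0.05. In hippocampus only Mt1 and Mt2 are filled and in brainstem only Slc39a8, and the average has 5 filled points, all to the right of 0.

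Mt1 rose in hippocampus. It was at 3286, 1825 and 3196 rescaled reads in the 3 controls and at 7187, 4559 and 4869 in the 3 libraries labelled knockout. Every library labelled knockout lay above every control, and the change passed the test (log2 fold change 1.02, SE 0.23, adjusted p = 0.0144). In brainstem Mt1 was at 1488, 1939 and 1627 in controls and at 2634, 2300.4 and 2590.3 in libraries labelled knockout. These groups also did not overlap, yet the change did not pass the test (log2 fold change 0.58, SE 0.23, adjusted p = 0.222). In olfactory bulb the values were 2569, 3156 and 3151 against 4267, 3103 and 1922, so that the libraries labelled knockout spread to both sides of the controls (log2 fold change -0.00, SE 0.23, adjusted p = 1). The value of 1922 was that of olfactory bulb knockout 3, the library with an Rn45s share of 20.8%. Fits without 1 library gave log2 fold changes of -0.27 to 0.30, the highest being that without knockout 3. This library was also the lowest of olfactory bulb for Mt3 and Slc39a8, but not for Mt2. The part of its Rn45s share was not tested. In cortex the values of Mt1 were 2383, 2812 and 2372 against 2872, 3087 and 2561, with overlap (log2 fold change 0.17, SE 0.23, adjusted p = 1). Averaged over regions, Mt1 rose by 0.44 (SE 0.11, adjusted p = 0.019).

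Mt2 had the smallest p of the 9 genes on average, when it rose by 0.66 on the log2 scale (SE 0.12, adjusted p = 0.000849). In hippocampus it was at 2632, 2227 and 2025 in controls and at 7030.0, 3571 and 4131 in libraries labelled knockout. The lowest of the latter lay above the highest control, and the mean rose 2.14-fold (log2 fold change 1.04, SE 0.23, adjusted p = 0.0158). In brainstem it was at 1509, 2007 and 1134 against 2724, 3076 and 2465, and in olfactory bulb at 2237, 1765 and 2078 against 4688, 2518 and 2563. Neither pair of groups overlapped, and neither passed the test (log2 fold change 0.86, SE 0.23, adjusted p = 0.0746 in brainstem, and log2 fold change 0.63, SE 0.23, adjusted p = 0.785 in olfactory bulb). In cortex the values, 2131, 2991 and 2595 against 2616, 3026 and 2744, overlapped, with a log2 fold change of 0.13 (95% interval -0.35 to 0.61).

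Mt3 was at lower levels than the other metallothioneins and varied more. In hippocampus it was at 256, 114 and 304 in controls and at 445, 562 and 676 in libraries labelled knockout. These groups did not overlap, but the test was not passed (log2 fold change 1.39, SE 0.42, adjusted p = 0.0942). In brainstem it was at 90.5, 50.6 and 124 against 132, 219 and 177, again without overlap (log2 fold change 1.01, SE 0.42, adjusted p = 0.262). In olfactory bulb (260.1, 271 and 551 against 404, 746 and 249.8) and in cortex (194, 146 and 138 against 191, 402 and 174) the groups overlapped. On average over regions Mt3 rose by 0.82 (SE 0.21, adjusted p = 0.0235), a call that limma-voom with sample weights did not make (adjusted p = 0.105).

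**Figure D3:**
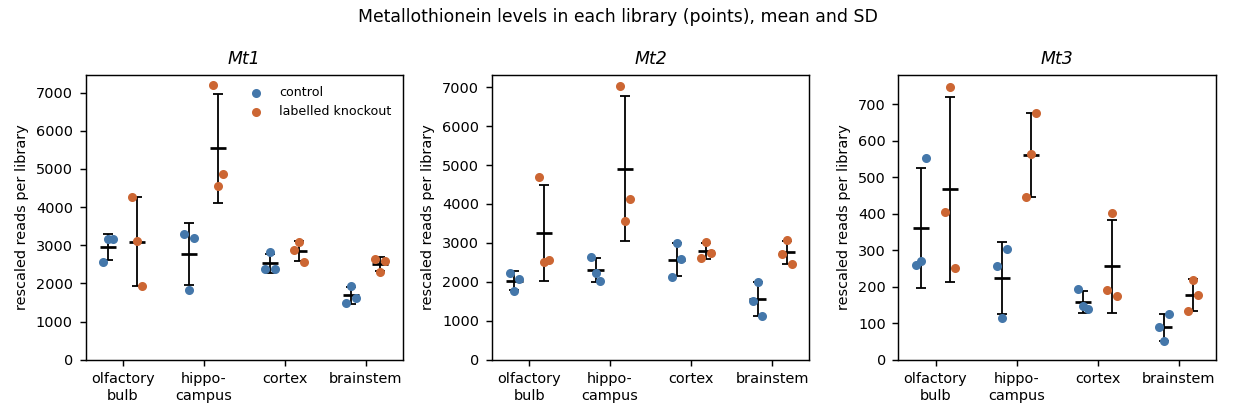
Rescaled reads of Mt1, Mt2 and Mt3 in each of the 24 libraries (points) by region and label, with mean and SD of 3 libraries. In hippocampus and brainstem all libraries labelled knockout lie above all controls for the 3 genes, and in cortex the groups overlap for each.

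Across the 3 genes and 4 regions, libraries labelled knockout lay above all controls in 7 of 12 comparisons, in hippocampus and brainstem for the 3 genes and in olfactory bulb for Mt2. The share of all tested genes with libraries labelled knockout above all controls was 7.15% for olfactory bulb and 9.73% for hippocampus. It was 7.06% for cortex and 5.42% for brainstem. The hippocampal calls depended on single libraries. Without hippocampal knockout 1, the deepest library and the highest for Mt1 and Mt2, the log2 fold change was 0.81, adjusted p = 0.0961 for Mt1 and 0.75, adjusted p = 0.111 for Mt2. Mt1 also lost its call without hippocampal control 2 (0.74, adjusted p = 0.0906), and Mt2 without hippocampal control 3 (0.96, adjusted p = 0.0651). The 5 calls of the average were kept in all 24 fits that left out 1 library, with adjusted p of at most 0.0472. Leaving out a whole region did more. Without hippocampus Mt2 alone of the 9 was called, and without brainstem Mt2 and Slc30a10 were. Without olfactory bulb, or without cortex, all 5 were called.

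Markers of another cell type moved with the labels in hippocampus. Sums over 12 choroid plexus markers were 108234 to 224679 rescaled reads in hippocampal controls and 3598 to 9447 in libraries labelled knockout, with reads for each of the 12 in both groups. Sums over 10 ependymal markers were 262 to 336 against 46.7 to 86.5. In brainstem the choroid plexus sums were 78323 to 374774 against 8371 to 140344, and in olfactory bulb 2569 to 3114 against 2581 to 3121, with 3 of the 12 at 0 in each of these last groups. In cortex they were 3480 to 95884 against 1117 to 12274. Their part in the changes of the 9 genes was not tested. In bulk samples, fewer cells of a type and less RNA per cell cannot be told apart. In olfactory bulb other sums separated the labels. Over 18 immediate early and heat-shock genes, which are raised when tissue is dissociated, they were 2492 to 5313 in controls and 1984 to 2048 in libraries labelled knockout. Over 8 markers of oligodendrocyte precursors they were 1565 to 1783 against 1032 to 1518, with reads for all of the listed genes in both groups. The part of these in the values of Mt2 and Slc39a8 there was not tested either.

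Slc39a8 encodes ZIP8, an importer of zinc and manganese at the cell surface. In brainstem it was at 31.9, 99.2 and 79.3 in controls and at 231, 271 and 223 in libraries labelled knockout. All 3 of the latter lay well above the highest control, and the mean rose 3.45-fold (log2 fold change 1.84, SE 0.37, adjusted p = 0.0143). This call was lost without brainstem control 1 (1.39, adjusted p = 0.172) and without brainstem knockout 3, the shallowest library (1.89, adjusted p = 0.0531). It was also lost when the 6 brainstem libraries were fitted alone (adjusted p = 0.731), where 0 genes of the whole table were called. In hippocampus the values were 43.2, 28.7 and 17.1 against 81.0, 84.4 and 40.9, which overlapped (log2 fold change 1.10, SE 0.37, adjusted p = 0.128). In cortex they were 33.5, 26.5 and 68.1 against 66.0, 77.2 and 63.5, also with overlap. In olfactory bulb the direction was the opposite, 63.9, 68.4 and 63.9 against 60.00, 59.5 and 49.95, with all libraries labelled knockout below the controls and a log2 fold change of -0.20 that did not pass (95% interval -0.96 to 0.57). Libraries labelled knockout lay below all controls for 6.92% of all genes there. On average over regions Slc39a8 rose by 0.87 (SE 0.19, adjusted p = 0.00479). ZIP8 is also made by endothelial cells, and sums over 12 endothelial markers in brainstem were 3954 to 5349 in controls and 3186 to 8840 in libraries labelled knockout. These ranges overlapped, and their part was not tested.

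Slc39a12 encodes ZIP12, a zinc importer made mainly in the brain. Its levels were 2692, 3509 and 3023 in cortical controls and 2422, 2637 and 2547 in cortical libraries labelled knockout. The latter lay below all controls, as they did for 7.48% of all genes, and the change did not pass (log2 fold change -0.27, SE 0.18, adjusted p = 0.944). In the other regions its groups overlapped, with log2 fold changes of -0.08 in olfactory bulb, 0.08 in hippocampus and 0.28 in brainstem. Its average effect was 0.00 with a 95% interval of -0.19 to 0.19, the narrowest of the 9.

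Slc39a14 encodes ZIP14, which imports zinc, manganese and iron. It was at 59.5, 73.1 and 66.5 in cortical controls and at 86.9, 79.2 and 123 in libraries labelled knockout, without overlap and without passing (log2 fold change 0.48, SE 0.38, adjusted p = 0.964). In the other regions the groups overlapped, and brainstem knockout 2, at 27.2, was the lowest of the 24 libraries. The average effect was -0.01 (95% interval -0.40 to 0.37).

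Slc30a10 encodes a cell surface exporter whose main cargo is manganese. In hippocampus it was at 244, 423 and 388 in controls and at 621, 685 and 509 in libraries labelled knockout. The groups did not overlap and the ratio of means was 1.72, just short of the threshold (log2 fold change 0.80, SE 0.23, adjusted p = 0.0567). The call was made there by edgeR (adjusted p = 0.0478) and DESeq2 (adjusted p = 0.0222). In cortex the values were 535, 655 and 609.6 against 792, 676 and 696, without overlap, at a log2 fold change of 0.26 that did not pass. In olfactory bulb they were 358, 376 and 487 against 415, 642 and 568, and in brainstem 118, 217 and 154 against 229, 152 and 252, with overlap in both. The fold change was above 0 in all 4 regions, and on average Slc30a10 rose by 0.46 (SE 0.11, adjusted p = 0.0141).

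Slc30a1 encodes ZnT1, the zinc exporter of the plasma membrane. It ranged from 124 in hippocampal control 3 to 572 in brainstem knockout 3, and its groups overlapped in every region. In hippocampus, where Mt1 and Mt2 rose, it was at 310.4, 423 and 124 in controls and at 262, 305 and 432 in libraries labelled knockout (log2 fold change 0.35, SE 0.33, adjusted p = 0.733). Its average effect was 0.16 (95% interval -0.18 to 0.51, adjusted p = 0.678).

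Mtf1 encodes the factor that senses zinc and acts on metallothionein promoters. Its transcript ranged from 187 to 408 over the 24 libraries, and its groups overlapped in all 4 regions. In hippocampus it was at 260.2, 343 and 316 in controls and at 219, 318 and 269 in libraries labelled knockout. The average effect was -0.03 (95% interval -0.25 to 0.20). Transcript levels do not measure how much of the factor is bound to zinc.

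**Figure D4:**
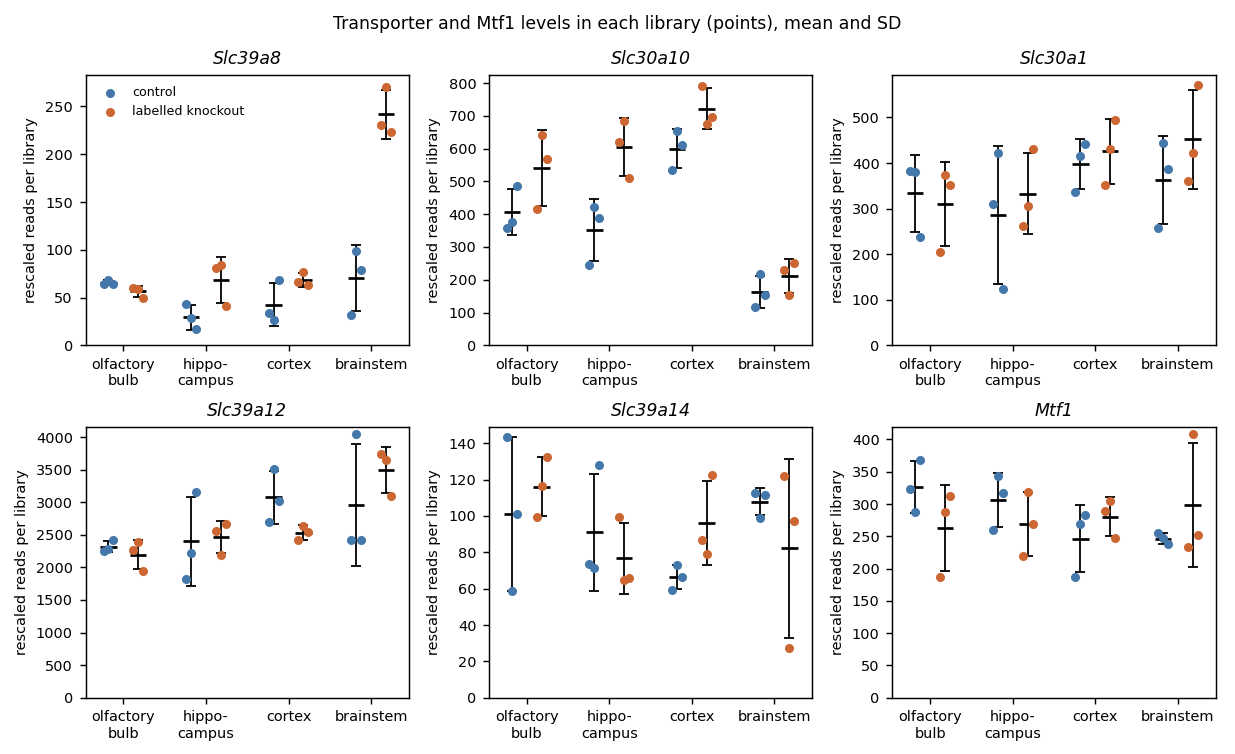
Rescaled reads of 5 transporter genes and Mtf1 in each of the 24 libraries (points) by region and label, with mean and SD of 3 libraries. Slc39a8 in brainstem separates the labels most, at 223 to 271 against 31.9 to 99.2, and Slc30a10 is lowest in brainstem under both labels.

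A difference of the effect among regions was not called for any of the 9 genes. The limma F test called 0.0705% of all genes. It gave an unadjusted p under 0.05 for 7.29% of all genes and for 2 of the 9, Mt1 (adjusted p = 0.576) and Slc39a8 (adjusted p = 0.395), and edgeR and DESeq2 called 0. Mt1 and Mt2 passing in hippocampus alone, and Slc39a8 in brainstem alone, are therefore not shown to be regional differences of the effect.

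Mt1 and Mt2 varied together over the 24 libraries, with Pearson's r of 0.81 on log2 values. Mt1 and Mt3 had an r of 0.75 and Mt2 and Mt3 an r of 0.52. The libraries share regions, labels and depth, so these values are descriptions. Mt1 had an r of 0.51 with Slc30a10, 0.01 with Slc39a8, -0.30 with Slc30a1 and -0.15 with Mtf1. The ratio of Mt2 reads to Mt1 reads within a library was 0.559 to 0.871 in olfactory bulb controls and 0.812 to 1.33 in libraries labelled knockout there. In hippocampus it was 0.634 to 1.22 against 0.783 to 0.978, in cortex 0.894 to 1.09 against 0.911 to 1.07, and in brainstem 0.697 to 1.04 against 0.951 to 1.34. These ranges overlapped in all 4 regions.

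**Figure D5:**
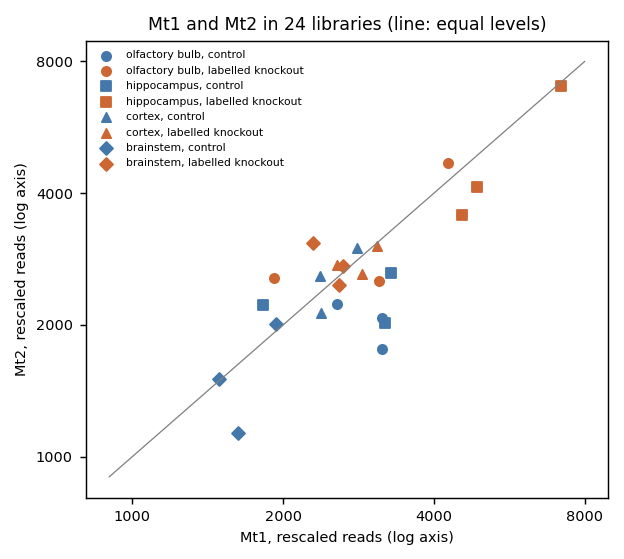
Mt1 against Mt2 in rescaled reads, both on log axes, for the 24 libraries, with colour for the label and marker for the region. The 3 hippocampal libraries labelled knockout and 1 from olfactory bulb lie at the upper right, and the brainstem controls lie at the lower left.

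Among control regions, the limma F test called 3 of the 9 genes, Slc30a10, Mt3 and Mt1, where 23.5% of all genes were called. Slc30a10 differed most (adjusted p = 2.49e-06). Its control means were 600.0 ± 60.5 in cortex, 407 ± 69.8 in olfactory bulb, 352 ± 94.4 in hippocampus and 163 ± 49.8 in brainstem (SD, n = 3). Brainstem was lower than cortex by a log2 difference of 1.89 (adjusted p = 5.34e-07), than olfactory bulb by 1.32 (adjusted p = 8.69e-05) and than hippocampus by 1.09 (adjusted p = 0.00173). These 3 calls were kept in all 24 fits that left out 1 library. The other neighbours in the order, cortex with olfactory bulb and olfactory bulb with hippocampus, did not differ past the threshold. The Rn45s shares of brainstem controls, 17.96% to 25.6%, overlapped those of cortical controls, 19.0% to 20.9%. They lay above those of olfactory bulb controls, 2.14% to 2.93%, and of hippocampal controls, 0.966% to 2.36%, and their part in these calls was not tested.

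Mt3 had its highest control mean in olfactory bulb, at 361 ± 165, then 225 ± 98.6 in hippocampus, 159 ± 30.1 in cortex and 88.5 ± 36.9 in brainstem (SD, n = 3; F test adjusted p = 0.00961). No neighbours in this order differed past the threshold. The difference of olfactory bulb and brainstem passed, at 1.96 on the log2 scale (SE 0.42, adjusted p = 0.00192), in a comparison that called 3 of the 9 genes and 19.5% of all. Mt1 followed the same order, from 2959 ± 338 to 1684 ± 231 (F test adjusted p = 0.0344), and olfactory bulb stood above brainstem by 0.81 (adjusted p = 0.0108). Without brainstem control 1 this adjusted p was 0.0645. The Rn45s shares given above separate olfactory bulb from brainstem controls too, and their part was not tested. The F call of Mt1 was lost without olfactory bulb control 2 or 3 or brainstem control 1 or 3 (adjusted p of at most 0.193), and that of Mt3 without brainstem control 2 (adjusted p = 0.0511). Neither F call was made by limma-voom with sample weights (adjusted p = 0.0645 for Mt1 and 0.129 for Mt3). Its calls were Slc30a10 and Mt2.

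Mt2 was highest in cortical controls, at 2572 ± 431, against 2294 ± 309 in hippocampus, 2027 ± 240.4 in olfactory bulb and 1550.1 ± 438 in brainstem (SD, n = 3). Its F test did not pass (adjusted p = 0.0789), and that of limma-voom with sample weights did (adjusted p = 0.0171). Cortex stood above brainstem by 0.75 on the log2 scale (adjusted p = 0.0278), in a comparison that called 2 of the 9 and 15.3% of all genes. Without a filter on low values it did not pass (adjusted p = 0.0578), nor in 4 of the 24 fits without 1 library, those without cortical control 2 or 3 or brainstem control 1 or 3. Hippocampus against brainstem called 1 of the 9 and 7.59% of all. Olfactory bulb against hippocampus, olfactory bulb against cortex and hippocampus against cortex called 0 of the 9, and 10%, 8.55% and 1.19% of all genes. At an unadjusted p under 0.05 they counted 1, 3 and 2 of the 9, where 20.4%, 19.4% and 13% of all genes were counted. DESeq2 called 1 of the 9 in each of these 3 comparisons.

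The other 5 genes had no call by limma among control regions. DESeq2 called Slc39a8 in the test over all 4 regions (adjusted p = 0.0409). Slc39a8 was at 63.9, 68.4 and 63.9 in olfactory bulb and at 43.2, 28.7 and 17.1 in hippocampus. Cortical controls had 33.5, 26.5 and 68.1 and brainstem controls 31.9, 99.2 and 79.3, and its F test gave an adjusted p of 0.0687. Control means of Slc39a12 ran from 2315 to 3075, of Slc39a14 from 66.4 to 108, of Slc30a1 from 286 to 398 and of Mtf1 from 246 to 327. Sums of cell type markers also differed between control regions. The astrocyte marker sums of brainstem controls were 163309 to 422318, below the 573967 to 773413 of cortical controls and overlapping the 361989 to 428409 of olfactory bulb and the 349257 to 583675 of hippocampus. The choroid plexus sums given above separated olfactory bulb from brainstem controls, the pair in which Mt1 and Mt3 were called. Brainstem sums over 12 oligodendrocyte markers were 54905 to 94891, above the 10129 to 42384 of the controls of the other regions. The part of these in the regional levels was not tested.

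Further genes of metal handling were read from lists of family members and textbook roles. In the average over regions, 2.73% of all genes were called higher and 3.03% lower. Of 10 ZnT genes, 8 were tested, and Slc30a10 alone was called in the average over regions (1 higher and 0 lower). Of 14 ZIP genes, 12 were tested, and the average called Slc39a8 higher and Slc39a4 lower. Slc39a4, the zinc importer of the gut, was at low levels, with means of 24.7 ± 21.3 in hippocampal controls and 23.1 ± 20.2 in brainstem controls and of at most 8.65 in the other groups (SD, n = 3). Its average log2 fold change was -1.26 (SE 0.38, adjusted p = 0.0461). The choroid plexus sums also had their highest medians in hippocampal and brainstem controls, and their part was not tested. Of 8 genes of manganese handling, the average called Slc39a8 and Slc30a10, both higher.

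Of 12 copper genes, 2 fell in hippocampus, where 1.67% of all genes fell, and 0 were called in the average. Slc31a1, the copper importer of the cell surface, fell from 837 ± 135 to 305 ± 18.03 (SD, n = 3), with a change of -1.43 on the log2 scale (SE 0.34, adjusted p = 0.0279). Slc31a2, its relative in endosomes and lysosomes, fell from 64.6 ± 21.1 to 19.3 ± 6.88 (-1.51, SE 0.37, adjusted p = 0.0233). The choroid plexus sums given above moved with these genes, and their part was not tested. Of 14 iron genes, the average called 1, beside 5.75% of all genes. It was Tfrc, the receptor that takes up transferrin, which rose by 0.50 (SE 0.12, adjusted p = 0.0107).

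Among control regions, the F test called 2 of the 12 ZIP genes, 3 of the 12 copper genes and 3 of the 14 iron genes, beside the 23.5% of all genes. Slc39a1, a zinc importer of the cell surface, was lower in brainstem than in olfactory bulb, hippocampus and cortex, at log2 differences of 0.91, 0.72 and 0.89. Fth1, the heavy chain of the iron store ferritin, was higher in brainstem than in olfactory bulb, with a log2 difference of -1.90 for olfactory bulb against brainstem (SE 0.25, adjusted p = 4.21e-06). The oligodendrocyte sums given above separated brainstem from the other control regions, and the choroid plexus sums separated it from olfactory bulb. Their part in these differences was not tested.

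Targets of other inducers of metallothioneins were counted in the same way. Of 14 glucocorticoid targets, the average called 1, Pdk4, which was lower, and of 11 tested targets of the antioxidant factor NRF2 it called 1, Gsr, which was higher. The share of all genes called in the average was 5.75%. Neither list had a call in a single region. The median log2 fold changes of the glucocorticoid list were -0.41 for olfactory bulb, -0.13 for hippocampus, 0.01 for cortex and 0.21 for brainstem. Those of the NRF2 list were 0.19, 0.16, -0.16 and -0.07 for the same regions. Sums over the glucocorticoid list separated the labels narrowly in olfactory bulb, at 2190.5 to 3307 in controls against 1794 to 2189.2. Sums over the NRF2 list did so in cortex, at 14058 to 16719 in controls against 11837 to 13299. In the other regions the sums of each list overlapped, and their part was not tested.

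Genes beside the metallothionein cluster did not pass in any comparison of labels. Bbs2, a subunit of a protein coat of the cilium, had an average log2 fold change of 0.20, Ogfod1, a ribosomal oxygenase, 0.18, and Nup93, a nuclear pore protein, 0.20, with adjusted p of 0.429, 0.375 and 0.514. In hippocampus they stood at 0.11, 0.31 and 0.56, where Mt1 and Mt2 stood at 1.02 and 1.04. For Nup93 too, all hippocampal libraries labelled knockout (69.1 to 94.99) lay above all controls (30.8 to 65.8). The groups of Bbs2 and Ogfod1 overlapped there.

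The genes whose log2 levels were most like each member over the 24 libraries were found by Pearson's r among 12102 genes. For Mt1 they were Cnn3 (0.77), Fmr1 (0.75) and Mrpl23 (0.75). Mt3 was also nearest to Cnn3 (0.82), and Mt2 was nearest to Ildr2 (0.79). The importer Slc39a8 was nearest to Adgra1 (0.87), and Slc39a12 to Il33 (0.86) and Maoa (0.86). Slc30a10 had the highest values of the 9, with Cadm1 (0.95), Pcdhgc5 (0.94) and Ppap2b (0.94). For Slc39a14, Slc30a1 and Mtf1 the first gene was Cabin1 (0.72), Ece1 (0.74) and Hmox2 (0.76).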

How the data were processed

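RNA was measured in 24 libraries, made from 5 ng of total RNA each. The authors deposited normalised signal, as 1 table for each library. Per the submitters' processing notes the tools were FastQC, STAR 2.5.0a and DESeq2 1.20.0 on mm10, with no roles stated, and the counting tool and its use of strand are not given in the sources used here. Each library's deposited values were multiples, within 0.01 read, of a single step that stands for 1 read, so reads were recovered in all 24. The deposited factors of the 6 cortical libraries were 1.26 to 1.27 times median-of-ratios factors taken over all 24 libraries, and those of the other 18 were 0.994 to 0.998 times. Reads were therefore rescaled with the joint factors, which moved no call of the 9 genes within a region.

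Of 24421 names, 23309 matched GENCODE vM21, whose coordinates and lengths were used. Genes at 20 or more in at least 3 libraries (12759) were fitted as log2 of the value plus 5 with limma 3.58.1 under R 4.3.3, using a mean for each group, an intensity trend, robust moderation and 16 residual degrees of freedom. Tests were two-sided, with Benjamini-Hochberg adjustment over all tested genes within each contrast and a threshold of 0.05. The added constant reduces the fold changes of low genes such as Slc39a8 and Slc39a14. The script was tested on simulated data. Intervals are 95% intervals of the fit.

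Named genes were the 9 members, Nfia, up to 4 called genes with the largest change from each metal list, the nearest 2 listed genes on each side of the metallothionein cluster, and the 3 genes most like each member. Fewer are printed where they repeat, and Mir138-2 was not tested. Pdk4 and Gsr were named after their values were seen. The members, lists and tests were chosen with earlier results of these data known. Alternatives were other added constants, no filter, edgeR 4.0.16 with TMM factors, limma-voom with sample weights, DESeq2 1.42.0, a block for the replicate number, a correlation within genotype and number, deposited values, single regions and each library left out. Averages over fewer regions were added after seeing the data. No label says whether replicate numbers pair libraries.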

Additional observations from a re-analysis of the deposited data

How the results depend on the processing

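With 3 libraries a group, the test reaches large or steady changes only, and a change that did not pass is not shown to be absent. Slc39a8 (down to 21 reads in a library), Mt3 (25) and Slc39a14 (17) are limited by depth most, and brainstem knockout 3 is the shallowest library. The 5 higher genes of the average passed with other added constants, no filter, edgeR, DESeq2, the replicate block, the correlation within genotype and number, deposited values and each library left out, but limma-voom with sample weights did not call Mt3.

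In counts of the 9 genes called, DESeq2 gave 5 in hippocampus (Mt3, Slc39a8 and Slc30a10 besides Mt1 and Mt2), and the brainstem libraries alone gave 0. The average gave 1 without hippocampus, 2 without brainstem, 1 for cortex and brainstem only (Slc39a8) and 1 for olfactory bulb and hippocampus only (Mt2). Between control regions, DESeq2 gave 1 for olfactory bulb against hippocampus, 1 for olfactory bulb against cortex, 1 for hippocampus against cortex and 4 for hippocampus against brainstem. Limma-voom gave 1 for olfactory bulb against cortex and 1 for hippocampus against cortex, and no low-value filter gave 1 for cortex against brainstem. The F call of Mt1 was also lost with no filter (adjusted p = 0.0776). Leaving out 1 library, the counts were 0 to 3 in hippocampus, 0 to 2 in brainstem, 2 to 4 among control regions, 1 to 3 for cortex against brainstem and for hippocampus against brainstem, 2 to 3 for olfactory bulb against brainstem, and 0 to 1 for hippocampus against cortex and for olfactory bulb against hippocampus.

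Over all genes, the 11 calls in olfactory bulb became 11 to 76 under the alternatives other than leaving out a library, 301 in hippocampus became 185 to 638, 48 in cortex 27 to 133, 85 in brainstem 0 to 134, 734 in the average 100 to 1003, and 9 in the test of effect differences 0 to 85. Leaving out 1 library gave 3 to 25, 84 to 443, 18 to 72, 17 to 871, 534 to 1280 and 0 to 90. Among control regions, 152 calls for hippocampus against cortex became 96 to 305, and 39 to 294 without 1 library.

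With the replicate number as a block, 3 of the 9 genes were called in hippocampus, the third being Slc30a10 (0.80, adjusted p = 0.0422), and no other call of the 9 changed. No label says whether libraries with the same number belong together. Deviations of libraries with the same number and region under different labels had a median r of 0.06 (-0.11 to 0.32 over 12 pairs). With different numbers it was -0.04 (-0.29 to 0.16 over 24 pairs). Between regions under 1 label it was 0.01 for the same number (-0.19 to 0.32 over 36 pairs). For different numbers it was -0.01 there (-0.30 to 0.23 over 72 pairs). These wide ranges cannot settle whether libraries share a mouse.

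Only values that had no call changed sign. Mt1 in olfactory bulb was 0.065 with edgeR, 0.066 with DESeq2 and 0.017 with limma-voom. The average of Slc39a14 was 0.025, 0.021 and 0.038 with these tools, 0.054 without hippocampus, 0.18 without brainstem and 0.029 for olfactory bulb and hippocampus. That of Slc39a12 was -0.014 with edgeR, -0.017 with DESeq2, -0.024 without hippocampus, -0.091 without brainstem and -0.0020 for olfactory bulb and hippocampus. That of Mtf1 was 0.078 without olfactory bulb, 0.030 without hippocampus and 0.21 for cortex and brainstem. Mt1 in hippocampal against cortical controls was -0.027 with limma-voom. The cause was not tested.

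Without 1 library, values in olfactory bulb ran from -0.27 to 0.30 for Mt1, -0.093 to 0.69 for Mt3, -0.059 to 0.55 for Slc39a14, -0.14 to 0.0044 for Slc39a12 and -0.34 to 0.15 for Slc30a1. In hippocampus they ran from -0.40 to 0.051 for Slc39a14, -0.10 to 0.29 for Slc39a12 and -0.15 to 0.71 for Slc30a1, in cortex from -0.025 to 0.22 for Slc30a1, and in brainstem from -0.97 to 0.016 for Slc39a14 and -0.022 to 0.37 for Mtf1. The averages ran from -0.11 to 0.14 for Slc39a14, -0.043 to 0.063 for Slc39a12 and -0.087 to 0.030 for Mtf1. In controls, Mt1 ran from -0.058 to 0.37 for hippocampus against cortex and -0.14 to 0.29 for olfactory bulb against hippocampus, where Slc30a10 ran from -0.0052 to 0.38.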
